A study of Drosophila melanogaster with 8 samples.

Results

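The proximal end of chromosome arm 3R, from position 4200000 to 6200000 in BDGP6 coordinates, was read feature by feature in Ldh mutant and control larvae. The interval was drawn because it holds Or82a, CG1092, Sec20 and the antisense RNA asRNA:CR45192, all of which had risen in mutants in an earlier reading of the same libraries, and the question was whether the risen features form 1 linked block. A feature, meaning a gene identifier with a line of counts, was a member if the midpoint of its gene lay between these borders. This gave 297 of the 17445 features counted, of 308 genes that the annotation places there. They comprised 231 protein-coding genes, 47 noncoding RNA genes, 11 small nucleolar RNA genes, 5 pseudogenes, 2 small nuclear RNA genes and 1 transfer RNA gene. The interval was chosen by the mutant-to-control fold changes of the 4 named features, so these values and the counts of calls inside it are given as a description of these libraries, with no test resting on them.

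Each sample was a pool of 25 whole fruit fly larvae (Drosophila melanogaster) at the mid-L2 stage, grown for 60 hours at 25 °C on molasses agar plates with yeast paste. The 4 mutant libraries (replicates 1, 2, 3 and 6) carried Ldh[16/17], the alleles Ldh[16] and Ldh[17] over each other, and the 4 control libraries (replicates 1, 2, 5 and 6) were labelled Ldh[precise], whereas the study's text speaks of heterozygous controls. Both groups were labelled w[1118], a white-eyed background. Ldh encodes lactate dehydrogenase, which interconverts pyruvate and lactate. Nothing in the labels states that replicates were separate cultures. A legend of the study speaks of biological replicates for its RNA-seq, but with another number per genotype and another number of larvae per sample. The p-values and SDs therefore measure only how these samples vary, and part of that may be technical. In whole larvae fewer cells of a type and less RNA per cell cannot be told apart.

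Several kinds of gene share this stretch of chromosome. Odorant receptors such as Or82a are membrane proteins of olfactory neurons that form ion channels together with the co-receptor Orco, which also lies in the interval. SNARE proteins such as Sec20 drive the fusion of transport vesicles with their target membrane, and Sec20 acts with Use1 and Syx18 where vesicles return from the Golgi to the endoplasmic reticulum. Antisense RNAs are transcribed from the strand opposite a gene and overlap it. Neighbouring genes can be read together through a shared regulatory element or through a transcript that runs from a gene into the next, which is why order along the arm was kept in what follows.

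Libraries held 371700 to 560865 reads assigned to a feature, and 2589 features passed the expression filter and were tested. Ldh itself, on 3L, was without a read in the 4 mutants, and control replicates 1, 2, 5 and 6 held 4, 3, 5 and 1 of its reads. Mutant replicate 3 differed most from the other mutants (chi-square over its degrees of freedom 7.01 to 10.5 in its pairs, and 2.66 to 6.35 in pairs of the others). Markers of larval tissues were read unevenly. Reads per library were 587 to 1133 over 5 genes of body wall muscle and 848 to 1148 over 4 genes of neurons. They were 23 to 46 over 3 genes of hemocytes and 4 to 13 over 4 genes of the cuticle. The fat body had 0 to 8 over 5 genes, with none for Fbp1, and the midgut 2 to 12 over 4 genes. All 5 muscle genes passed the expression filter, but only 1 of the neuron genes and 1 of the hemocyte genes did. None of the cuticle, fat body or midgut genes passed it. The sum for neurons is therefore not evidence that all 4 of its genes were read.

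The interval took a steady share of the reads, 1.71% to 1.82% in mutants and 1.73% to 1.77% in controls. Within it 69 features were tested, 55 of them protein-coding genes and 14 noncoding RNAs, while 160 had reads but too few to test and 68 had no read in any library. The tested features with an exon on the other strand of another gene's exon numbered 55 and held 93.8% of the reads of the interval. They were 79.7% of its tested features, so this was no trait of the interval. Of all tested features with a position in the annotation 84% had such an exon, and of all features with a position 26.1%. The 5 with the highest mean level were all antisense RNAs. The first was asRNA:CR46140 opposite Vps24, with 676 to 1062 reads per library, and then came asRNA:CR46138 opposite CG1074 (437 to 925), asRNA:CR46135 opposite Atu (467 to 677), asRNA:CR45999 opposite CG9855 (416 to 626) and asRNA:CR44134 opposite Lipt2 (317 to 546). Per kilobase of exon, asRNA:CR46138 had a mean level of 979.98 CPM (reads scaled by library size) and CG1074 on its other strand 1.34 CPM. By the same measure asRNA:CR46140 had 2006 CPM and Vps24 119.98 CPM. The ribosomal protein genes RpL35A and RpL13A, with no exon on their other strand, had 6 to 26 and 4 to 15 reads per library.

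These levels bear on what a feature measures. In 5 features of the interval every exon base lies opposite an exon of another gene (MP1, CG14645, asRNA:CR44134, Or83a and Atu), and they received 5635 reads over the 8 libraries. Counting without strand sets aside such reads as ambiguous, and ambiguous reads were only 0.0255% to 0.0350% of the lines of a file. The counting therefore used strand, provided that the annotation behind it held both genes. Which of the strands was counted was not given in the sources used here and was not tested. Of uniquely aligned reads, 97.8% to 98.1% lay in no feature, and tested features had an opposite-strand exon far more often than features at large. If the strand counted was the opposite of the RNA, the reads of a feature came from its other strand. A level or fold change given under a gene's name may then be that of RNA from its other strand. Each feature is therefore described below with what lies there.

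Of the 69 tested features, 4 were called higher in mutants and 1 lower (edgeR quasi-likelihood test over all features, Benjamini-Hochberg adjusted p under 0.05). Over all features tested, 1.54% were called higher and 1.62% lower, 3.17% in all. At an unadjusted p under 0.05, 6 members were higher and 7 lower, where 8.03% and 7.34% of all features were. The 4 higher features were the 4 that defined the interval, so nothing is read from their number, and the lower feature was MP1. The same 4 were also the only tested members with a log2 fold change above 1. The median log2 fold change of the 69 was 0.08, and 0.07 without the 5 called features, beside 0.01 over all features tested. With library totals in place of TMM factors the calls over all features changed from 40 higher and 42 lower to 38 and 63, while the 5 called in the interval remained the same 5.

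In order along the arm, the 4 risen features did not form 1 unbroken run of called features. They formed pairs toward opposite ends of the interval, Or82a with CG1092 and Sec20 with asRNA:CR45192, and 1554 kb separated the pairs. Whether the pairs are genetically linked to each other was not tested. Between CG1092 and Sec20 lay 236 features, of which 55 were tested. None of these 55 was called higher by edgeR, where 1.54% of all features tested were, and none by DESeq2 or limma-voom. At an unadjusted p under 0.05, 2 were higher, where 8.03% of all features were. At such a share few calls are met in 55 features, so nothing is read from their absence. The rest of the 236 features had too few reads to be tested. The log2 fold changes of the 55 ran from -0.64 to 0.49, with a median of 0.07, and 32 of them were positive. The members of a pair were close together, with 8325 bp between Or82a and CG1092 and 10945 bp between Sec20 and asRNA:CR45192.

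**Figure D1:**
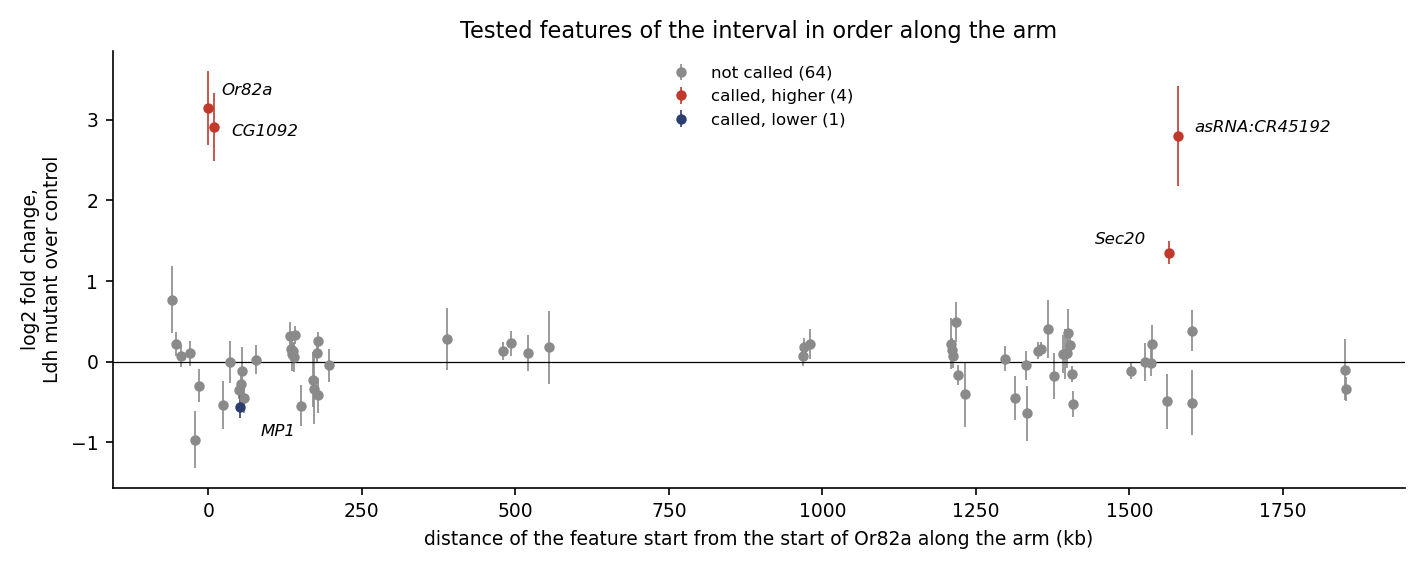
Each point is 1 of the 69 tested features of the interval, placed by the distance of its start from the start of Or82a along the arm (x axis, kb); the y axis is the log2 fold change of mutant over control and the bars are its standard error. The 4 features called higher stand as 2 pairs toward the ends, and the features between them lie from -0.64 to 0.49.

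Or82a (FBgn0041621; 3R, 4256972 to 4258444, plus strand) had 21, 23, 36 and 16 reads in mutant replicates 1, 2, 3 and 6. In control replicates 1, 2, 5 and 6 it had 4, 4, 2 and 0 reads. Scaled to library size this was 51.6 ± 16.3 CPM in mutants and 5.74 ± 4.84 CPM in controls (SD, n = 4 each). The lowest mutant library, replicate 6 at 35.5 CPM, stood above the highest control library, replicate 1 at 10.05 CPM, so the groups did not overlap. The log2 fold change was 3.15 (SE 0.46), and the ratio of summed reads, 96 against 10, was 9.25 with an exact 95% interval of 4.82 to 19.9 that covers counting error only.

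CG1092 (FBgn0037228; 3R, 4266770 to 4268316, plus strand), the next feature along the arm and on the same strand, showed the same order of groups. It had 12, 17, 28 and 16 reads in mutant replicates 1, 2, 3 and 6 and 1, 2, 5 and 1 reads in control replicates 1, 2, 5 and 6. Its level was 39.0 ± 12.7 CPM in mutants and 4.62 ± 2.87 CPM in controls (SD, n = 4 each), and its log2 fold change was 2.91 (SE 0.42). Mutant replicate 3 was the highest library for both genes, at 74.1 CPM for Or82a and 57.6 CPM for CG1092. Control replicate 5 was the highest control for CG1092 but not for Or82a. No exon lies on the other strand of either gene, and no annotated gene lies between them. Both were called in each of the 8 fits that left out a library, where the log2 fold change of Or82a ran from 2.81 to 3.50 and that of CG1092 from 2.64 to 3.46. These fits reuse the libraries whose rise chose the interval, so they show only how far the values hang on a single library. Or82a, CG1092 and asRNA:CR45192 passed the expression filter only through the mutant libraries, where they are high.

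No tested neighbour of this pair was called in either direction. On the proximal side lay Tweedle genes, which encode cuticle proteins, and TwdlF, TwdlG, TwdlV and the pseudogene TwdlU had 0 to 3 reads per library. The nearest tested feature beyond them was CG14642, 14.3 kb from Or82a, with 41 to 81 reads in mutants and 40 to 79 in controls (log2 fold change -0.30, SE 0.21, not called). The gelsolin gene Gel, whose product severs actin filaments, lay next to it and had 37, 17, 26 and 11 reads in mutant replicates 1, 2, 3 and 6 against 52, 34, 71 and 19 in control replicates 1, 2, 5 and 6. These groups overlapped and Gel was not called (log2 fold change -0.97, SE 0.35), though it was called without an expression filter. On the distal side, flip had 0, 2, 2 and 3 reads in mutants and 1, 2, 3 and 10 in controls. The complexin gene cpx, whose product clamps SNARE complexes at synapses, started 11.9 kb from the end of CG1092 and had 9 to 20 reads in mutants and 14 to 25 in controls (log2 fold change -0.54, SE 0.30, not called). Nepl11, of the neprilysin-like peptidases, had a log2 fold change of 0.00 (SE 0.26).

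**Figure D2:**
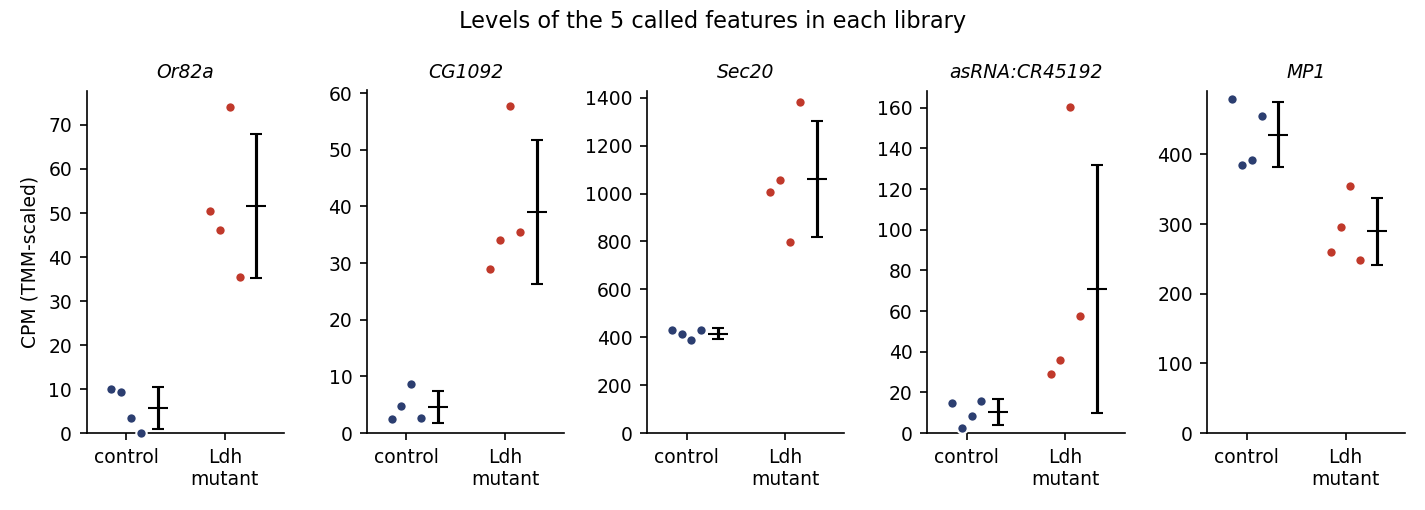
CPM of the 5 called features in each of the 4 control and 4 Ldh mutant libraries (points, in the order of the replicate numbers; linear axes from 0), with the mean and SD beside them. Mutants lie above controls without overlap for Or82a, CG1092, Sec20 and asRNA:CR45192, and below them for MP1.

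Sec20 (FBgn0037383; 3R, 5822026 to 5824532, minus strand) was the best counted of the risen features. Mutant replicates 1, 2, 3 and 6 had 419, 525, 387 and 623 reads, and control replicates 1, 2, 5 and 6 had 172, 175, 224 and 165. The controls were close together at 415.9 ± 21.1 CPM, while the mutants ranged from 796.8 CPM in replicate 3 to 1380 CPM in replicate 6, with a mean of 1060 ± 241.2 CPM (SD, n = 4 each). The groups did not overlap, and the log2 fold change of 1.35 (SE 0.14) stayed between 1.20 and 1.46 when any library was left out, with the call kept in all 8 of these fits. Unlike Or82a and CG1092, Sec20 was lowest among the mutants in replicate 3. On its other strand, 410 of its exon bases are covered by CG46303, a protein-coding gene that has no line of its own in the counts analysed here. Whether the reads counted under Sec20 came from Sec20 RNA or from RNA of its other strand was not tested.

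The genes directly beside Sec20 had few reads. Hpr1, which encodes a subunit of the THO complex in messenger RNA export, lies 585 bp away on the same strand and had 7, 16, 5 and 8 reads in mutants against 8, 15, 16 and 10 in controls (log2 fold change -0.49, SE 0.34, not called). On the other side, dgrn, which encodes a ubiquitin ligase that recognises SUMO, had 0, 1, 0 and 1 reads in mutants and none in controls. The globin gene glob3 had 1 read, in mutant replicate 3. Further proximal, Hpf1 and PSMG1, which overlap at their ends, were at -0.01 (SE 0.17) and 0.22 (SE 0.24) on the log2 scale.

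The fourth risen feature, asRNA:CR45192 (FBgn0266702; 3R, 5835478 to 5836178, minus strand), had few reads, 78 of its 134 in mutants coming from replicate 3. It had 12, 18, 78 and 26 reads in mutant replicates 1, 2, 3 and 6 and 6, 1, 5 and 6 reads in control replicates 1, 2, 5 and 6, or 70.8 ± 61.1 against 10.4 ± 6.26 CPM (SD, n = 4 each). The groups did not overlap, the lowest mutant library being 28.9 CPM and the highest control 15.7 CPM. The log2 fold change was 2.80 (SE 0.62), and 1.98 without mutant replicate 3. The call ended without control replicate 1, 2 or 5, and with limma-voom or robust estimation, although the log2 fold change was 2.48 or more in each of these. The feature covers 259 exon bases of CG1208 on the other strand, counted here among sugar transporters. CG1208 itself had 1, 2, 4 and 6 reads in mutants and 2, 3, 2 and 3 in controls, a ratio of summed reads of 1.25 (exact 95% interval 0.507 to 3.19), so a difference in it was not detectable at this depth. Its neighbour CG1213, of the same transporter list, had 1 read over the mutants and 7 over the controls.

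Antisense RNAs of the interval were often highest in mutant replicate 3. Among the mutants this library was the highest for 9 of the 14 tested noncoding RNAs and for 13 of the 55 tested protein-coding genes. The same count was not made outside the interval, so it is not read as a trait of the interval. Over the whole series this library had 8217 features with a read, and the other mutants 7218 to 7491. For example, asRNA:CR46133, opposite CG2017 and 22.0 kb distal to asRNA:CR45192, had 351.4, 377.7, 792.7 and 285.8 CPM in mutant replicates 1, 2, 3 and 6 against 313.8 to 409.4 CPM in controls. It was not called (log2 fold change 0.38, SE 0.25), and its log2 fold change was as low as -0.05 with a library left out. In asRNA:CR44155, opposite the ion channel gene rpk, replicate 3 had 50 reads and the other mutants 12 to 17. The part of this library in the rise of asRNA:CR45192 beyond the values given was not tested.

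**Figure D3:**
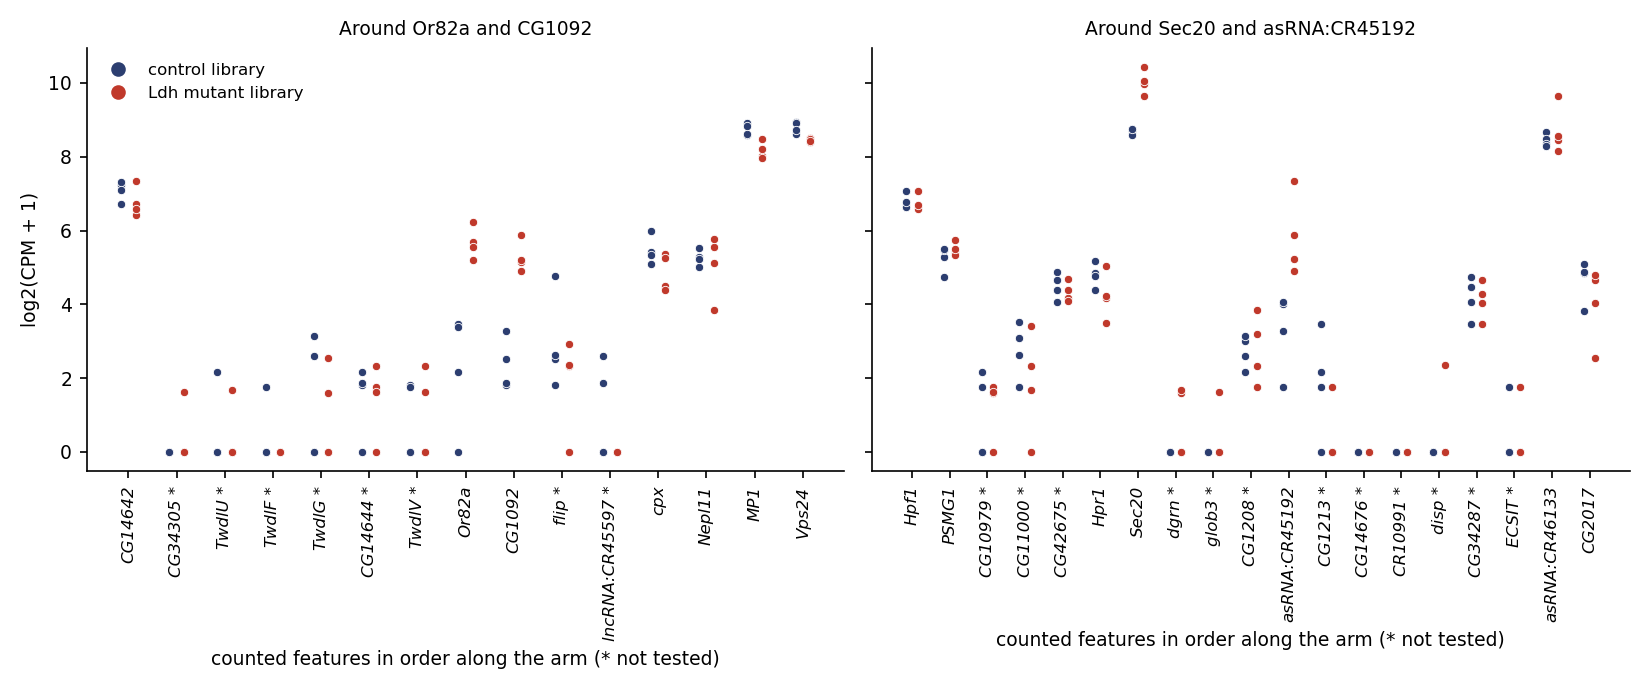
Levels of counted features in their order along the arm around each pair, as log2(CPM + 1) with 1 point per library; features with an asterisk had too few reads to be tested. Or82a, CG1092, Sec20 and asRNA:CR45192 show mutant points above all control points, while the features directly beside each pair do not.

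MP1 was the only member called lower. It encodes a serine protease of the melanization cascade and lies 39.6 kb distal to CG1092 (FBgn0027930; 3R, 4307908 to 4309835, plus strand), with all 1525 of its exon bases opposite exons of Vps24, a gene of the ESCRT-III complex that bends endosomal membranes. MP1 had 108, 147, 172 and 112 reads in mutant replicates 1, 2, 3 and 6 and 191, 163, 227 and 174 in control replicates 1, 2, 5 and 6. Mean levels were 289.4 ± 47.6 CPM in mutants and 428.0 ± 46.8 CPM in controls (SD, n = 4 each), without overlap and with a log2 fold change of -0.55 (SE 0.14). The call was near the threshold. It ended in 7 of the 8 fits with a library left out, all but the fit without mutant replicate 3, while the log2 fold change stayed between -0.68 and -0.49.

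The features beside MP1 had negative fold changes as well, though none of them was called. Vps24 had 349.6 ± 11.5 CPM in mutants and 448.5 ± 47.4 CPM in controls, without overlap (log2 fold change -0.35, SE 0.11). The antisense RNA over another part of Vps24, asRNA:CR46140, had 1677 ± 258.7 CPM in mutants and 2039 ± 206.9 CPM in controls (log2 fold change -0.28, SE 0.12), and here mutant replicate 3, at 2040 CPM, overlapped the controls. Without that replicate its log2 fold change was -0.39 and it was called. Syt14, a synaptotagmin gene further distal, had 77.0 ± 15.6 against 105.8 ± 13.9 CPM (log2 fold change -0.45, SE 0.18). Suv3, which overlaps Syt14 on the other strand, had -0.11 (SE 0.29). MP1 and asRNA:CR46140 lie one after the other on the plus strand. Opposite them lie 2264 of the 3326 exon bases of Vps24, where only strand separates its reads from theirs. Which gene's RNA gave the reads counted under MP1 was not tested.

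None of the remaining tested features was called. Groups did not overlap in 8 of the 69 features with mutants higher and in 5 with mutants lower, where 4.21% and 5.02% of all features did so. Besides the 4 called, the higher ones were CG9853 (335.5 ± 14.99 against 267.4 ± 8.27 CPM; log2 fold change 0.33, SE 0.11), the biotin ligase gene Hcs (0.49, SE 0.24), asRNA:CR46135 (0.16, SE 0.09) and asRNA:CR44093 (0.21, SE 0.14). Besides MP1, the lower ones were Vps24, Syt14, the lipoyl transferase gene Lipt2 (-0.41, SE 0.22) and Xe7 (69.7 ± 6.36 against 100.7 ± 12.6 CPM; -0.53, SE 0.16). Lipt2 went with a positive value on its other strand, 0.26 (SE 0.10) for asRNA:CR44134. Other log2 fold changes, of genes picked for their known roles after the values were seen, were 0.22 (SE 0.32) for RpL35A, 0.41 (SE 0.36) for RpL13A, 0.10 (SE 0.23) for the COPII coat gene Sec23, 0.18 (SE 0.12) for the katanin gene Kat60 and -0.17 (SE 0.12) for the MAP kinase scaffold gene ksr. At the distal end 2 overlapping genes of odorant-binding proteins were tested, Obp83cd at -0.10 (SE 0.38) and Obp83ef at -0.34 (SE 0.15), and neither was called.

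The 228 members below the filter held 1121 reads over the mutants and 1122 over the controls, with at most 21 in a library. Their groups did not overlap in 1 feature with mutants higher and in 3 with mutants lower, all of few reads. The share over all features below the filter was not computed, so nothing is read from these numbers. The higher one was asRNA:CR44019, opposite the cathepsin gene CtsF, with 5, 5, 8 and 5 reads in mutants and 2, 1, 4 and 2 in controls. Its ratio of summed reads was 2.46 (exact 95% interval 1.098 to 6.05). The lower ones were Fip1, Ubc6 and CtsL3, with 4, 4 and 1 reads over the mutants and 9, 6 and 9 over the controls. In Ubc6 and CtsL3 the highest mutant and the lowest control library each had 1 read, so only the scaling to library size separated the groups. The longest stretch without a tested feature ran for 410 kb between Gmppb and Vps37B. Its 34 features had at most 7 reads in a library, fewer than Or82a or CG1092 had in any mutant, and changes among such low counts were not detectable at this depth.

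Other members of the families of the risen genes were read beside them, with the same limit that the strand counted is not known. Of 61 odorant receptor genes counted, Or82a and 2 others were tested. Or43b had a log2 fold change of 0.04 (SE 0.14) with 87 to 144 reads, and Or88a -0.07 (SE 0.36). The other receptors of the interval were Or83a with 33 reads over mutants and 29 over controls, Or83c with 12 and 8, and the co-receptor gene Orco with 0 in all 8 libraries, and 37 of the 61 genes had no read. Of 33 SNARE proteins and partners, Sec20 and 8 others were tested. Of these 2 receptors and 8 partners, 0 were called by edgeR, DESeq2 or limma-voom, and 0 had an unadjusted edgeR p under 0.05, where 3.17% and 15.4% of all features did. As the rise of Or82a and Sec20 chose them, nothing is read from their being the ones called. The partners of Sec20 in the endoplasmic reticulum had log2 fold changes of -0.09 (Use1, SE 0.12, with 134 to 219 reads) and 0.16 (Syx18, SE 0.34). None of the 24 sugar transporters had enough reads to be tested, nor had any of the 22 Osiris genes, a clustered family of which Osi1 lies in the interval.

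Set beside the rest of the arm, the interval was the first stretch from the proximal side with any tested feature. The arms were divided into windows of 2 Mb in step with the interval. The other 15 windows of 3R had 0 to 2 features called higher, and together 7 of 573 tested features were called higher and 7 lower. The 4 of the interval are the features that defined it, so its count is not ranked against these. Of the 79 called and placed features, 10 had another feature called in the same direction within 20 kb, the 4 of the interval included. How many would be met by chance was not computed, so nothing is read from this number.

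**Figure D4:**
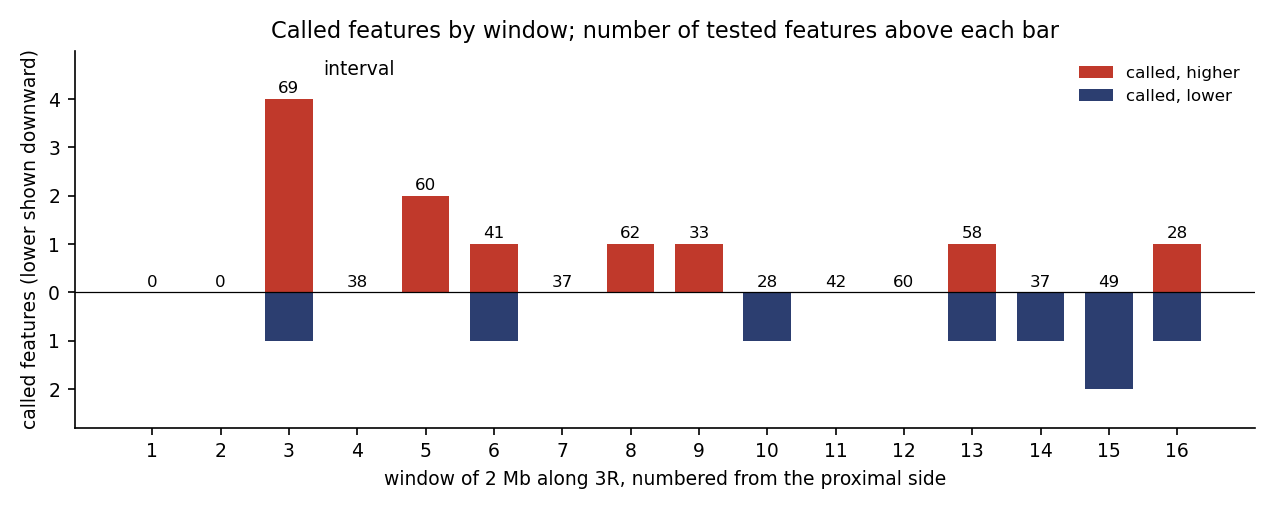
Number of features called higher (upward) and lower (downward) in each of the 16 windows of 2 Mb along 3R, numbered from the proximal side, with the number of tested features above each bar. The interval had 4 higher, the features that defined it, and 1 lower among 69 tested, and the other windows had 0 to 2 higher.

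The risen features had little else in common. Or82a and CG1092 lie on the plus strand with no exon opposite them, Sec20 and asRNA:CR45192 on the minus strand with an exon opposite each, and the interval as a whole has 34 tested features on the plus strand and 35 on the minus strand. Their mean levels per kilobase of exon spanned from 14.6 CPM for CG1092 and 24.7 CPM for Or82a to 62.6 CPM for asRNA:CR45192 and 300.7 CPM for Sec20. In the interval the median by this measure was 17.2 CPM for the 14 tested features without an opposite exon and 89.97 CPM for the 55 with one. At the borders, beta-Man, the first feature inside the proximal border, had 22, 13, 25 and 6 reads in mutants and 6, 12, 8 and 11 in controls (log2 fold change 0.77, SE 0.42, not called), and the pseudogene CR33294 just outside had none. NPFR, the last inside the distal border, had no read and Osi24 just outside it had 1, in mutant replicate 1.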

How the data were processed

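RNA-seq read counts of 8 libraries were analysed, 4 of Ldh mutants and 4 of controls, grouped by the genotype in the labels. The deposited files hold whole-number counts per FlyBase gene identifier, with no normalization by the authors. Tools in the notes of the submitters were HTSeq 0.6.1p1, TopHat2 2.0.13 with Bowtie2 2.2.4, Trimmomatic 0.32, DESeq2 and CASAVA, without their roles. For the files' build, annotation, strand setting and kit the answer is not given in the sources used here, and the paper's methods describe another route. In each file 5 summary lines name no gene and were left out: reads in no feature were 65.1% to 77.2% of lines and alignments that were not unique 21.2% to 33.7%, leaving 1.24% to 1.62% assigned.

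Positions came from BDGP6 (Ensembl release 115), where 17151 of 17445 features were placed; an opposite-strand gene was named from 50 bp of exon overlap. Counts were tested with edgeR 4.0.16 in R 4.3.3 (quasi-likelihood, default filter, TMM, no covariates), adjusted over all 2589 tested features and called at 0.05. CPM are counts scaled by library total and TMM factor. The pipeline was tested on simulated data. Alternatives were DESeq2 size factors, library totals, no filter, 1 CPM in 4 libraries, DESeq2 1.42.0, limma-voom (limma 3.58.1), robust estimation, the replicate block and leaving out each library. Named features were the 4 that define the interval, those called, their nearest tested neighbours, opposite-strand genes, the 5 highest by mean CPM, list members and border features; others were chosen after their values were seen. The members and the 4 gene lists were chosen with earlier results of these data known. No sequence was used here.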

Additional observations from a re-analysis of the deposited data

Results flagged for a closer look

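In 5 named features a library stood apart from its group, the gap to the nearest of the other 3 exceeding 0.829 of the group's range. Mutant replicate 3 was the high library in 3 of them. It had 102.9 CPM for asRNA:CR44155 against 26.6 to 34.2 CPM in the other mutants, 205.9 CPM for asRNA:CR44093 against 160.7 to 164.0 CPM, and 22.6 CPM for CtsF (11 reads) against 0 to 2.22 CPM. For asRNA:CR45999, control replicate 1 had 1143 CPM against 1081 to 1088 CPM in the other controls, and for flip, control replicate 6 had 26.2 CPM (10 reads) against 2.51 to 5.19 CPM. Chance flags about 1 in 20 groups of values, and 85 were screened.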

How the results depend on the processing

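The count of members called higher was 4 or 3 in all 17 alternatives, from 3 to 4 with a library left out. Or82a, CG1092 and Sec20 were called in each alternative, all of which reuse the libraries that chose the interval. The count called lower, 1 in the main setting, was 2 without a filter (Gel joined MP1), 2 with the replicate block on the 6 libraries numbered 1, 2 and 6, 2 on these libraries without the block (asRNA:CR46140 joined MP1 in both), and from 0 to 2 with a library left out. Of 644 values of 38 tested features under the alternatives, 628 kept their side of the threshold, 12 lost a call, 4 gained it and 0 reversed a called direction. Over all features 82 were called, 184 without a filter, 138 with the replicate block and 164 without mutant replicate 3. The replicate numbers share no stated batch, and deviations of same-numbered libraries correlated at -0.11, 0.01 and -0.03. The causes of these changes were not tested. With 1.24% to 1.62% of lines assigned, most members could not be tested.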
